A study of Mus musculus with 2 samples.

Results

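Endocardial cells form the single sheet of endothelium that lines the chambers and valves of the heart. They were examined here among non-cardiomyocytes of the adult mouse heart, 20 days after transverse aortic constriction (TAC, a surgical narrowing of the aorta that loads the left ventricle with pressure) or after a sham operation. A cell was taken as endocardial when it held at least 1 UMI (a counted mRNA molecule) of at least 2 of the 4 genes Npr3, Cytl1, Adgrg6 and Hapln1, and of at least 2 of the 4 general endothelial genes Pecam1, Cdh5, Emcn and Egfl7. It also had to hold no Prox1, the master factor of lymphatic endothelium, and less than 0.3% of its UMIs from the fibroblast genes Dcn, Col1a1, Col1a2 and Col3a1 together. This rule found 63 of 15964 kept cells, 36 of 7964 in the sham library and 27 of 8000 in the TAC library. The cells were thus chosen by the measured UMIs of these 13 genes, whose levels are given as a description and support nothing.

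Both groups were male C57BL6/J wildtype mice, and each is represented by 1 library. The hearts were perfused by injection and digested, cardiomyocytes were left to settle out, red cells and debris were removed, and viable DAPI-negative single cells were sorted and loaded on 1 lane of droplet 3′ sequencing with a target of 10000 cells. The sources used here state neither the age of the mice nor how many hearts went into each library. With 1 library a group there is no test of TAC against sham: a difference between the libraries cannot be told apart from a difference between animals, dissections or sorts.

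The endocardium separates blood from muscle and signals to the muscle. It is a source of neuregulin 1, the ligand of the ErbB receptors on cardiomyocytes, and of endothelin. It carries von Willebrand factor and the natriuretic peptide clearance receptor NPR3, whereas coronary capillaries carry the machinery that moves fatty acids from blood into muscle. On the valves it also takes part in WNT and NFATC1 signalling.

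The TAC library was the deeper of the pair, with 96003109 deposited UMIs against 42490230, and the median kept cell held 11237 UMIs against 4895.5. The endocardial cells followed this, with a median of 3457 UMIs in sham (1057 to 15696 per cell) and 11971 in TAC (4951 to 44886), and a median of 1786 and 4033 genes. Levels are therefore given as CPM, the UMIs of a gene per 1000000 UMIs, summed over the cells of a class and library. The endocardial sums were 153489 UMIs in sham and 389365 in TAC. Intervals are exact 95% intervals, Poisson for ratios of counts and Clopper-Pearson for shares, and they cover counting error only. Of the barcodes deposited, 15 occurred in both libraries, and 0 of these were endocardial. In the text below, values are in the order sham, then TAC, unless stated.

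The comparison group was the capillary-type cells, which passed the same endothelial, Prox1 and fibroblast limits, held a UMI of Gpihbp1 or Rgcc (capillary genes, the first a docking protein for lipoprotein lipase) and held no Npr3. There were 119 in sham and 649 in TAC, with a median of 1946 and 4601 UMIs. The rule excludes lymphatic cells only through Prox1. A UMI of the lymphatic genes Lyve1, Flt4, Mmrn1 or Ccl21a was held by 34 (28.6%) and 212 (32.7%) of the capillary-type cells. The source of these UMIs was not tested.

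Among the 203 and 731 cells of the blood endothelial gate, most held none of the 4 endocardial marker genes (134 and 655 cells), 33 and 49 held 1, 29 and 20 held 2, and 7 and 7 held 3. No cell held all 4. Cytl1, a small secreted protein, was seen in 36 and 23 of the endocardial cells, Npr3 in 24 and 22, Hapln1, a link protein of hyaluronan matrix, in 13 and 7, and the adhesion receptor Adgrg6 in 6 and 9. Npr3 and Hapln1 were rarely in the same cell: 11 and 4 cells held Hapln1 without Npr3, and 2 and 3 held both. The rule shapes this, since a cell without Hapln1 had to hold 2 of the other marker genes. Of the 23 and 20 cells without Hapln1, 22 and 19 held Npr3. Just outside the rule, the 33 and 49 gate cells with 1 marker gene held Vwf at 316 and 596 CPM and Fabp4 at 5179 and 7437 CPM. The endocardial cells held Vwf at 827 and 945 CPM and Fabp4 at 1961 and 2196 CPM, with no test. Some other genes named below were not particular to the endocardial cells in sham. The cells with 1 marker gene held Cdh11 at 696 and 136 CPM, Pdlim3 at 1141 and 73.0, and Inhba at 875 and 2.81. In endocardial cells these were at 749 and 593, 814 and 552, and 384 and 339 CPM. With 1 marker gene, Pthlh was at 552 and 98.3 CPM and Ccdc141 at 380 and 1.40, against 560.3 and 277 and 365 and 100. Wnt9b was at 187 and 4.21 CPM and Vcam1 at 1083 and 209, against 91.2 and 56.5 and 573 and 778. H19 was lower with 1 marker gene in both libraries, at 50.2 and 181 CPM against 430.0 and 914. So were Tm4sf1 (1449 and 1229 CPM against 7466 and 8704) and Smoc1 (7.17 and 26.7 against 111 and 254).

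**Figure D1:**
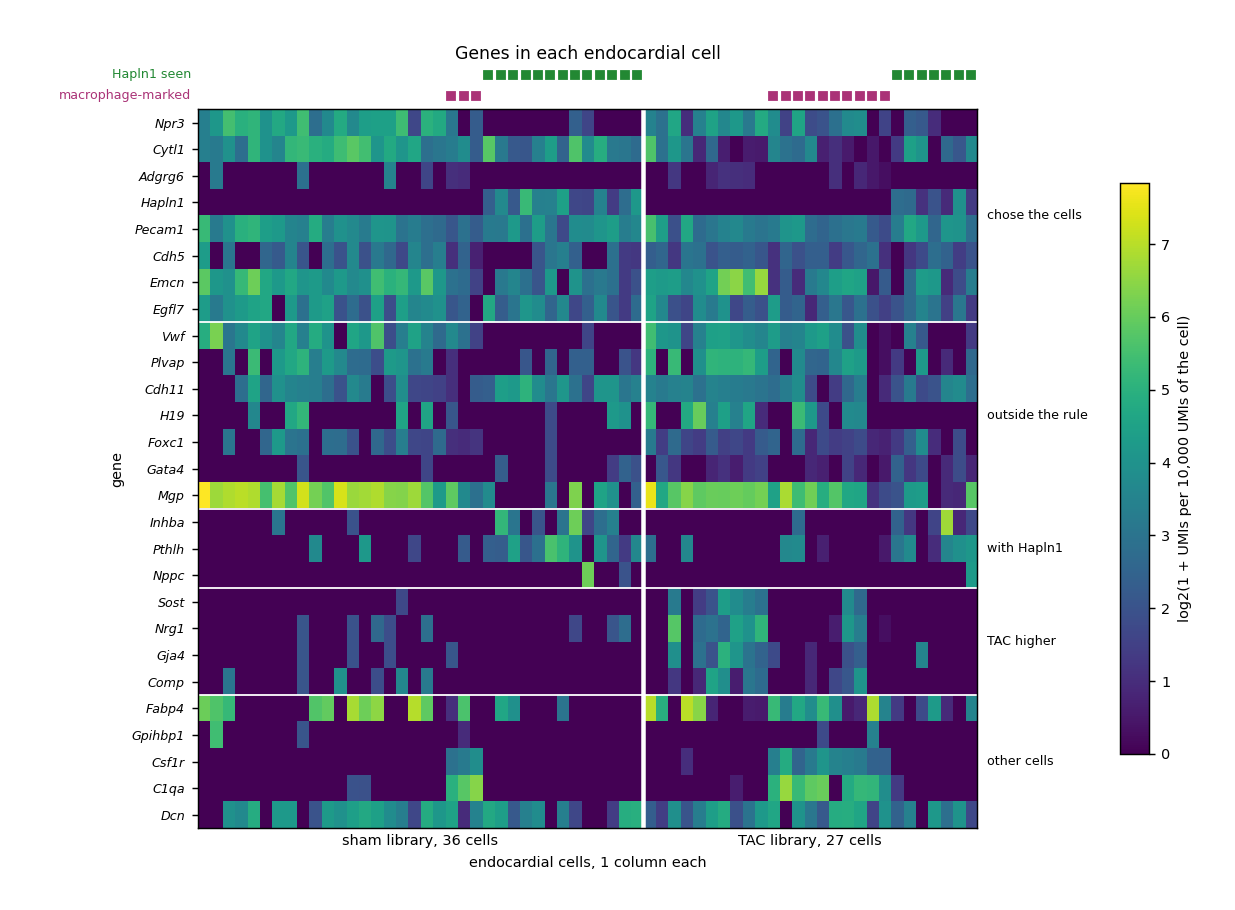
Heat map of the 63 endocardial cells (columns, split into the sham and TAC library) and 27 genes (rows), coloured by log2(1 + UMIs per 10,000 UMIs of the cell). Squares above the cells mark cells with macrophage genes and cells with Hapln1: 10 of 27 TAC cells and 3 of 36 sham cells carry the macrophage mark, and the Hapln1 cells are mostly empty in Npr3.

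Some of these cells carried RNA of other cell types. Counting a cell as macrophage-marked when it held at least 5 UMIs of Csf1r, C1qa, C1qb and C1qc, the marked share was 3 of 36 in sham (8.33%, 1.75 to 22.5) and 10 of 27 in TAC (37.0%, 19.4 to 57.6). Among capillary-type cells the shares were 4.20% (1.38 to 9.53) and 6.93% (5.10 to 9.17). Marked and unmarked endocardial cells were far apart, since the marked cells held at least 72 and 22 such UMIs and the unmarked cells at most 1 in each library. Over the 12 macrophage genes listed, the summed level was 7128 and 11945 CPM in all endocardial cells, and 93.3 and 70.6 CPM in the 33 and 17 unmarked cells, where 7 and 6 of the 12 genes were at 0. The marked cells were also deeper, with medians of 10703 and 17668.5 UMIs against 3389 and 11165. A doublet caller (Scrublet) called 1 and 0 of the endocardial cells, and no cell was removed for this. The main gene counts, and the named genes that rested on the marked cells, are also given below for the unmarked cells. Most other values between the libraries are of all endocardial cells, where the marked cells held 191067 of the 389365 TAC UMIs.

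Of the 4 fibroblast genes, most UMIs in endocardial cells were of Dcn, the proteoglycan decorin. The endocardial cells held 189 and 504 Dcn UMIs against 2 and 0 of Col1a1, 5 and 52 of Col1a2 and 3 and 72 of Col3a1. That is 18.9 and 4.06 Dcn UMIs for each collagen UMI, against 5.85 and 1.79 in fibroblasts, and whether these cells make Dcn themselves was not tested. The fibroblast limit left out 38 and 44 cells that otherwise met the rule, 34 and 39 of them only because of Dcn. The endocardial cell nearest the limit was at 0.298% and 0.297%, and the nearest cell left out at 0.308% and 0.303%. Pdgfra, a defining fibroblast receptor, was seen in 0 and 1 endocardial cells and in 6 and 7 of the cells left out. The summed level of the 12 fibroblast genes was 2450 and 2715 CPM in endocardial and 697 and 874 CPM in capillary-type cells, with 2 and 1 of the 12 at 0. The part of this RNA in the results below was not tested. Values for the cells left out are given beside Nrg1, Sost and Cytl1.

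The label was set beside 24 endocardial genes that the rule does not use, a list chosen with earlier results of these data known. Over all 24, whatever their level, 20 were at least 2-fold higher in endocardial than in capillary-type cells in both libraries and 0 were at least 2-fold lower. With no filter on level, 672 of 12206 genes were higher and 988 lower in both. Of the 18 with at least 50 CPM in either class of both libraries, 17 were higher, but a gene can reach 50 CPM through the endocardial class alone. The list was chosen with earlier results known, so both counts, over 24 and over 18 genes, are a description and support nothing. Over all 3850 genes measured, 190 (4.94%) were at least 2-fold higher and 249 (6.47%) lower in both. In the sham library alone 603 of 4732 (12.7%) were higher and 556 (11.7%) lower, and in the TAC library alone 385 of 4296 (8.96%) were higher and 425 (9.89%) lower. Because marker genes picked the cells in these same libraries, the comparison has no test. Without macrophage-marked cells, 279 (6.93%) genes were higher and 299 (7.42%) lower of 4028.

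Vwf, which encodes von Willebrand factor, was at 827 and 945 CPM in endocardial cells and at 132 and 211 CPM in capillary-type cells. Plvap, the diaphragm protein of fenestrae and caveolae, was at 521 and 1282 CPM against 95.4 and 278 CPM. Tm4sf1, a tetraspanin-like surface protein, was among the most abundant of the list at 7466 and 8704 CPM against 2124 and 1113 CPM. Endocardial cells thus stood above capillary-type cells for each of these in both libraries. The transcription factors of the list were lower in level and higher than in capillary-type cells. Gata4 was at 65.2 and 89.9 CPM against 3.29 and 0.813, Gata6 at 293 and 401 CPM against 42.7 and 35.2, and Foxc1 at 215 and 226 CPM against 55.9 and 39.8. Tbx20, a T-box factor of the heart, was at 78.2 and 30.8 CPM against 0 and 5.42. Nfatc1, the factor of endocardial cushions, was at 137 and 43.7 CPM against 55.9 and 41.7, so that the classes differed in sham and were close in TAC. Ramp3, a co-receptor of adrenomedullin signalling, and Fgfr3 were also not 2-fold higher in both, at 124 and 43.7 CPM and 78.2 and 33.4 CPM. Irx6 was not detected in endocardial cells of either library.

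Among the 12 genes with the firmest excess outside the rule were H19, Inhba, Colec11, Ahsg, Cdh11, Pdlim3, Pthlh, Tmem108, Ncam1, Smoc1 and Ccdc141. Cdh11, a cadherin best known from mesenchymal cells, was the most evenly spread of them. It was at 749 and 593 CPM in endocardial and 19.7 and 14.1 CPM in capillary-type cells, a ratio of 38.0 (16.9 to 106) in sham and 42.1 (31.1 to 58.1) in TAC. It was seen in 86.1% and 92.6% of endocardial cells and in 2.52% and 3.85% of capillary-type cells. Thinned to 2500 UMIs a cell, which kept 29 and 27 endocardial and 39 and 559 capillary-type cells, it was seen in 75.9% and 77.8% against 2.56% and 2.33%.

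H19, a maternally expressed imprinted lincRNA at chr7:142575529-142578143 on the minus strand (GRCm38), was at 430.0 and 914 CPM. In capillary-type cells it was at 0 in sham, which puts the difference at 5.45 or more on the log2 scale when 0 is read as 3 UMIs, and at 32.8 CPM in TAC, a ratio of 27.9 (22.6 to 34.6). It was carried by a subset, 25.0% and 48.1% of the endocardial cells. Plagl1, another imprinted gene and one that encodes a zinc finger factor, was at 130 and 223 CPM against 3.29 and 1.90. Inhba, which encodes the subunit of activin A, was at 384 and 339 CPM against 3.29 and 0.542 CPM, where the capillary-type values rest on 1 and 2 UMIs. A single cell carried 52.5% of its endocardial UMIs in sham and 87.9% in TAC, and with all cells thinned before the rule was applied its TAC log2 ratio was 0. Pthlh, the parathyroid hormone-like peptide, was at 560.3 and 277 CPM against 9.86 and 17.3. Pthlh was spread over more cells, with at most 22.1% and 20.4% of its UMIs in 1 cell. Colec11, a soluble collectin of the lectin complement pathway, was at 241 and 293 CPM against 0 and 5.15, and Ahsg, the plasma protein fetuin-A, at 235 and 108 CPM against 0 and 0.542. Under a fibroblast limit of 0.1%, the 11 TAC cells left held 0 UMIs of either, which allows up to 24.3 CPM and so shows no direction against the capillary level. Pdlim3, Tmem108, Ncam1, Smoc1 and Ccdc141 completed the group. Pdlim3, a muscle-type cytoskeletal adaptor, was at 814 and 552 CPM against 36.2 and 14.9, and Smoc1, a matricellular modulator of BMP signalling, at 111 and 254 CPM against 0 and 2.44.

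**Figure D2:**
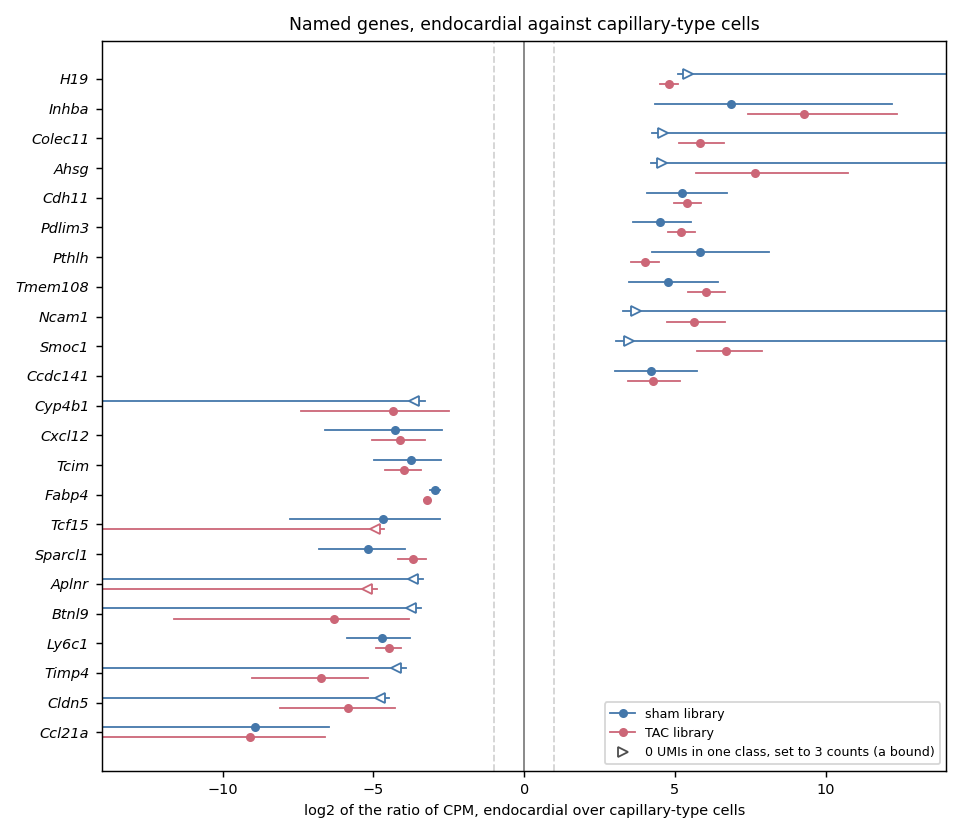
Log2 ratio of CPM, endocardial over capillary-type cells, for 23 genes named by rule, in the sham and TAC library (points, with exact 95% counting intervals). Open triangles are bounds for genes at 0 in 1 class, read as 3 UMIs. The 11 upper genes lie above 0 and the 12 lower ones below 0 in both libraries.

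The 12 genes with the firmest deficit were Ccl21a, Cldn5, Timp4, Ly6c1, Btnl9, Aplnr, Sparcl1, Tcf15, Fabp4, Tcim, Cxcl12 and Cyp4b1. Fabp4, the fatty acid carrier of capillary endothelium, was at 1961 and 2196 CPM in endocardial and 15277 and 20398 CPM in capillary-type cells. The ratio was 0.128 (0.114 to 0.144) and 0.108 (0.101 to 0.115). In TAC 1 macrophage-marked cell carried 33.2% of the endocardial Fabp4 UMIs and 24 of the 28 Gpihbp1 UMIs. A UMI of Gpihbp1 or Rgcc was held by 4 and 3 of the endocardial cells. Cldn5, the claudin of endothelial tight junctions, was at 0 and 7.70 CPM against 539 and 439, and was seen in 47.9% and 54.9% of capillary-type cells. Aplnr, the apelin receptor, was at 0 in both endocardial sums against 253 and 283 CPM. Tcf15, which encodes a factor of the fatty acid programme of heart capillaries, was at 13.0 and 0 CPM against 335 and 240.0 CPM. Timp4 was at 0 and 7.70 CPM against 368 and 824 CPM, and the chemokine gene Cxcl12 at 19.6 and 30.8 CPM against 385 and 530 CPM. Ly6c1 was at 58.6 and 126 CPM against 1549 and 2798 CPM, which is uncertain because its reads can be shared with the near-identical Ly6c2. Ccl21a, also a gene with near-identical copies, was at 6.52 and 2.57 CPM against 3196 and 1407 CPM. The endocardial values rest on 1 UMI in each library. The comparison group held lymphatic RNA, and its part in this deficit was not tested. Ccl21a is itself one of the 4 lymphatic genes. Leaving out capillary-type cells with lymphatic UMIs therefore sets its level there to 0, and the log2 ratios of 2.91 and 1.84 that result show no direction. With both Gpihbp1 and Rgcc required of the comparison cells, the sham log2 ratio was also 2.91, against -8.73 as reported. The sham deficit of Ccl21a was thus not seen with that group, where the ratio rests on 1 endocardial UMI. In TAC its direction held.

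Of 20 capillary lipid and retinol genes listed, 16 were measured. Of these, 1 was higher and 13 lower in both libraries, with medians of -2.56 and -3.73. The comparison cells were chosen by capillary genes, and a gene of any list can reach 50 CPM through 1 class alone. The counts of this and the following lists are therefore a description and support nothing. Over all genes the shares were 4.94% higher and 6.47% lower, which is the background for each list against capillary-type cells. Cd36, the fatty acid translocase, was at 293 and 139 CPM against 1776 and 2472 CPM. Lpl, lipoprotein lipase, was at 71.7 and 46.2 CPM against 401 and 710.0 CPM, and Car4, a carbonic anhydrase of capillaries, at 6.52 and 0 CPM against 148 and 203 CPM. The 1 exception, Fabp5, another fatty acid carrier, was at 3551 and 4012 CPM against 868 and 1601 CPM. In these sums endocardial cells held less of most of the measured transcripts and more of Fabp5. Of 11 VEGF, angiopoietin and apelin genes 5 were lower and 0 higher. Kdr, the main VEGF receptor, was at 124 and 97.6 CPM against 372 and 519 CPM. Of 14 basement membrane genes 4 were lower and 0 higher, among them Col4a1 at 248 and 265 CPM against 691 and 1252 CPM.

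Arterial and venous genes lay on both sides. Of 10 arterial genes 2 were higher and 3 lower. Clu, clusterin, was at 808 and 681 CPM against 78.9 and 66.4 CPM, whereas Dll4, a Notch ligand of arteries, was at 13.0 and 15.4 CPM against 145 and 81.0 CPM, and the arterial factor Sox17 at 39.1 and 7.70 CPM against 187 and 225 CPM. Of 7 venous genes 2 were higher and 3 lower, with Cpe, carboxypeptidase E, at 834 and 1112 CPM against 112 and 140.0 CPM. The 10 lymphatic genes had 0 higher and 7 lower. Mmrn1, Reln and Pdpn, all lymphatic genes, were at 0 in both endocardial sums, while Mmrn1 was at 865 and 285 CPM in the capillary-type cells.

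Of 19 BMP and TGF-beta genes measured, 6 were higher and 2 lower in both libraries. The ligand gene Bmp6 was at 208 and 313 CPM against 72.3 and 51.5 CPM, and the type I receptor gene Bmpr1a at 97.7 and 95.03 CPM against 9.86 and 2.98 CPM. The inhibitory Smad6 was at 280 and 175 CPM against 46.0 and 37.6 CPM, and the target Id2 at 860 and 1205 CPM against 194 and 127 CPM. The higher side thus held a ligand, a receptor, an inhibitor and a target gene. The 2 lower genes were Acvrl1, the endothelial receptor ALK1, at 32.6 and 51.4 CPM against 158 and 167 CPM, and Smad1 at 52.1 and 46.2 CPM against 227 and 146 CPM. Of 5 WNT genes 3 were higher and 1 lower. Wnt9b, a ligand gene of valve endothelium, was at 91.2 and 56.5 CPM against 13.2 and 3.25 CPM. Of 12 haemostasis genes 3 were higher and 0 lower, beside the 4.94% and 6.47% of all genes. Ptgis, prostacyclin synthase, was at 222 and 154 CPM against 19.7 and 5.96 CPM, and F2r, the thrombin receptor, at 469 and 318 CPM against 115 and 94.8 CPM. Of 20 interferon response genes 0 were higher and 8 lower, and of 22 oxidative phosphorylation genes 0 passed 2-fold in either direction.

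The Hapln1 cells were set apart from the other endocardial cells after their values were seen, so what follows is a description. Among unmarked cells, 13 sham and 7 TAC cells held Hapln1, and 20 and 10 did not. Pecam1 was alike between them, at 1187 and 1287 CPM with Hapln1 and 1334 and 1139 CPM without, and Cdh11 was present in both. Npr3 was at 53.1 and 102 CPM with Hapln1 and 2245 and 1470.0 CPM without. Both are genes of the rule, so this gap follows in part from the choice of cells and supports nothing. Vwf was at 17.7 and 175 CPM against 1708 and 1539.5 CPM, and Tm4sf1 at 921 and 702 CPM against 16173 and 18882 CPM. Most Vwf and Tm4sf1 of the endocardial sums therefore lay in cells without Hapln1. Colec11 and Ahsg were at 0 in the Hapln1 cells of both libraries. In the other direction, Inhba was at 992 and 1842 CPM with Hapln1 and 48.8 and 0 CPM without, and 1 cell in each library held 31 of the sham and 116 of the TAC UMIs. Pthlh was at 1258 and 965 CPM against 179 and 108 CPM, and the prion protein gene Prnp at 1984 and 1243 CPM against 114 and 61.6 CPM. The WNT ligand genes Wnt9b (248 and 307 CPM) and Wnt4 (230.3 and 424 CPM) were at 0 or 38.5 CPM at most without Hapln1, and Dkk2, a WNT modulator, was at 159 and 468 CPM against 0 and 7.70 CPM. On genes outside the rule, such as Vwf, Tm4sf1 and Pthlh, the 4-gene rule thus gathered cells of more than 1 expression pattern. Nppc, the C-type natriuretic peptide gene, had 34 and 24 UMIs, held by 2 sham cells and 1 TAC cell.

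Turning to the libraries, endocardial cells were 0.452% of kept cells in sham (0.317 to 0.625) and 0.338% in TAC (0.223 to 0.491), and the intervals overlapped. As a share of the blood endothelial gate they were 17.7% (12.7 to 23.7) in sham and 3.69% (2.45 to 5.33) in TAC. The gate itself held 203 cells in sham and 731 in TAC, so this share moved with the number of other endothelial cells, most of them capillary-type. Cells were sorted and each library is a single preparation, so neither share is a tissue abundance. The number of cells rested on the rule: 7 and 7 cells met it with 3 of 4 marker genes, 16 and 11 under a fibroblast limit of 0.1%, 62 and 64 under 1%, and 70 and 66 with a limit on the collagens without Dcn. Thinning all cells before applying the rule left 20 and 9.

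**Figure D3:**
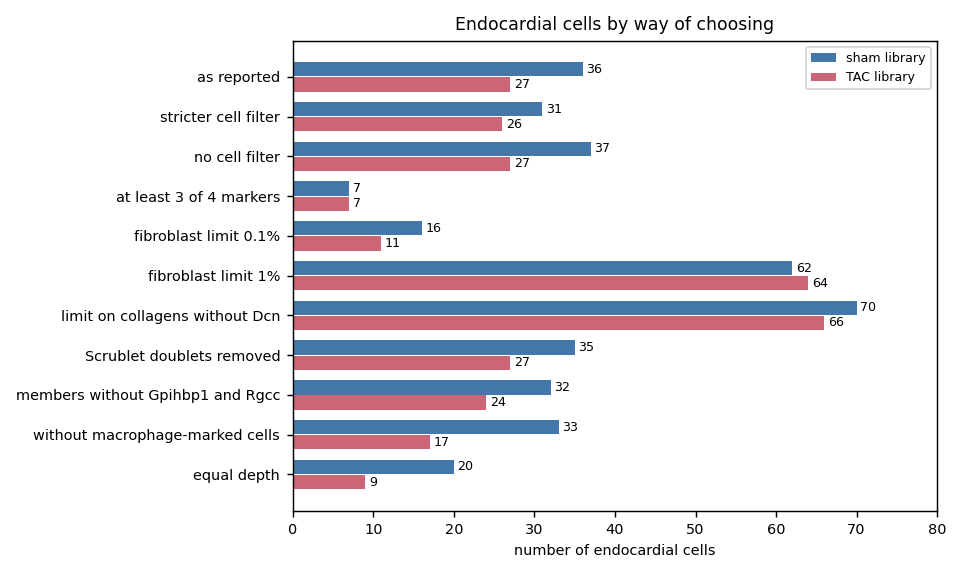
Bars give the number of endocardial cells in the sham and TAC library under each way of applying the rule, from 0. The counts are 36 and 27 as reported and range from 7 and 7 to 70 and 66.

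Between the libraries, 446 of 4603 genes (9.69%) were at least 2-fold higher in TAC than in sham endocardial cells and 498 (10.8%) at least 2-fold lower, with a median log2 ratio of -0.12. Without macrophage-marked cells 574 of 4826 (11.9%) were higher and 592 (12.3%) lower. In capillary-type cells, whose sums are larger, 122 of 4186 (2.91%) were higher and 130 (3.11%) lower. The capillary-type sums held 304126 and 3692075 UMIs, and the part of the lower endocardial counts in these numbers was not tested. The 24 endocardial genes outside the rule had 4 higher and 5 lower of 22 measured, a median of 0.21.

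Nrg1, the neuregulin 1 gene, at chr8:31814551-32884029 on the minus strand (GRCm38), was at 97.7 CPM (15 UMIs) in sham and 675 CPM (263 UMIs) in TAC. The ratio was 6.91 (4.11 to 12.5). Unmarked cells held 127 and 1029 CPM, a ratio of 8.09 (4.79 to 14.7). The cells left out by the fibroblast limit held 196 and 1502 CPM, a ratio of 7.65 (5.43 to 11.1). In capillary-type cells it was at 6.58 CPM (2 UMIs) in sham and 0 in TAC. The excess in TAC was thus about as large with and without marked cells and on both sides of the 0.3% limit. At 2500 UMIs a cell, Nrg1 was seen in 24.1% of sham endocardial cells (10.3 to 43.5) and 33.3% of TAC ones (16.5 to 54.0). These intervals overlapped, so no difference in the share of cells is shown at equal depth. The share in capillary-type cells was 2.56% and 0%, and without thinning 22.2% and 40.7% of endocardial cells held it. The excess was not seen under a fibroblast limit of 0.1%, where Nrg1 had 4 UMIs in 16 sham cells and 0 in 11 TAC cells.

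Sost, which encodes the secreted WNT and BMP antagonist sclerostin best known from bone, was at 6.52 CPM (1 UMI) in sham and 359.6 CPM (140 UMIs) in TAC, a ratio of 55.2 (9.74 to 2195). The cells left out by the fibroblast limit held 51.9 and 550.1 CPM, a ratio of 10.6 (5.50 to 23.4), and capillary-type cells 0 and 1.35 CPM. At 2500 UMIs a cell Sost was seen in none of the 29 sham cells, which allows a share of cells with a UMI of up to 10.3% (3 of 29), and in 29.6% of the TAC cells (13.8 to 50.2). Gja4, the gap junction protein connexin 37 of arterial endothelium, was at 39.1 and 401 CPM, a ratio of 10.2 (4.60 to 28.4), and at 25.4 and 691 CPM in unmarked cells. In capillary-type cells it went the other way, from 112 to 41.2 CPM, a ratio of 0.368 (0.253 to 0.551). The difference between the 2 classes was not tested. At 2500 UMIs a cell Gja4 was seen in 6.90% (0.846 to 22.8) and 33.3% (16.5 to 54.0) of endocardial cells, and these intervals overlapped. Gdf6, a BMP-family ligand gene, was at 0 in sham and 152 CPM (59 UMIs) in TAC, at least 7.75-fold higher with 0 read as 3 UMIs.

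These 4 transcripts lay largely in the same cells. Of the 27 TAC endocardial cells, 9 held Sost, and each of these 9 also held Nrg1 (7 to 73 UMIs), Gja4 (4 to 53), Comp, a cartilage matrix protein gene (1 to 38), Npr3 (12 to 57) and Plvap (17 to 72). Gdf6 was seen in 5 of them. Among the other 18 TAC cells, Nrg1 was seen in 2 and Gja4 in 3. Summed, Nrg1 was at 1688 CPM in cells with Sost and 8.52 CPM in cells without, Gja4 at 931 and 51.1 CPM, Emcn at 4766 and 746 CPM, and Cytl1 at 155 and 558 CPM. The cells with Sost were deeper, with a median of 18268 UMIs against 10380, and 2 of the 9 were macrophage-marked against 8 of the 18. In sham 1 of 36 cells held Sost, with Comp (5 UMIs) and Npr3 (18 UMIs) and without Nrg1 or Gja4. The same combination was in the cells left out by the fibroblast limit, where 28 of 44 TAC cells and 5 of 38 sham cells held Sost, and all 28 TAC cells also held Nrg1 and Gja4. Grouping by Sost was made after its values were seen, so these sums have no test.

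The 9 TAC cells with Sost held between 0.104% and 0.297% of their UMIs from the 4 fibroblast genes, a median of 0.239% against 0.153% in all TAC endocardial cells. None lay under 0.1%, where 11 of the TAC and 16 of the sham endocardial cells were. Under that limit Sost had 1 UMI in sham and 0 in TAC, which is under the 3 UMIs that a count of 0 allows and shows no direction. Gdf6 was not seen in either library, and Gja4 had 1 UMI in sham and 10 in TAC. Under a limit of 1% the log2 ratios were 3.84 for Sost, 3.03 for Nrg1 and 3.97 for Gja4. How much of this rests on which cells the Dcn limit admits in each library was not tested.

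Txndc5, an endoplasmic reticulum protein disulfide isomerase, was at 39.1 and 403 CPM, a ratio of 10.3 (4.63 to 28.5), and at 16.4 and 36.3 CPM in capillary-type cells. Igfbp3, a binding protein of insulin-like growth factors, was at 0 and 100.2 CPM, and St3gal5, the synthase of ganglioside GM3, at 0 and 97.6 CPM. With 0 read as 3 UMIs these were at least 5.12-fold and 4.99-fold higher. Comp was at 111 and 342 CPM, and Emcn, endomucin and one of the rule's genes, at 1394 and 2342 CPM.

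On the lower side in TAC, the endocardial marker Cytl1 was at 1707 and 398 CPM, 4.29-fold higher in sham (3.50 to 5.26), and at 2210.3 and 569 CPM in the cells left out by the fibroblast limit. Since it is a gene of the rule, this is a description: in TAC fewer cells entered through it. Npr3, by contrast, was at 1003 and 827 CPM, 1.21-fold higher in sham (0.995 to 1.48), which is not beyond counting error. Hbegf, the heparin-binding ligand of the EGF receptor family, was at 195 and 12.8 CPM, 15.2-fold higher in sham (5.85 to 50.2), all in unmarked cells. Cd24a, a surface sialoglycoprotein, was at 267 and 30.8 CPM, 8.67-fold higher in sham (4.47 to 18.1). In sham 1 cell held 14 of the 30 Hbegf UMIs. At 2500 UMIs a cell the share with Hbegf was 24.1% (10.3 to 43.5) and 7.41% (0.910 to 24.3). With Cd24a it was 34.5% (17.9 to 54.3) and 7.41% (0.910 to 24.3), and the intervals overlapped for both genes. Both lay mostly in Hapln1 cells. Within unmarked Hapln1 cells Hbegf was at 496 and 73.1 CPM and Cd24a at 691 and 146 CPM, so the libraries also differed within these 13 and 7 cells.

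Fam174b, Ankrd33b and Gem were lower in TAC in both endothelial classes. Fam174b was at 254 and 38.5 CPM, 6.60-fold higher in sham (3.55 to 12.9), and in capillary-type cells at 72.3 and 31.4 CPM. Ankrd33b was at 208 and 30.8 CPM, 6.76-fold higher in sham, and Gem, a small GTPase induced by activation, at 182 and 25.7 CPM, 7.10-fold higher (3.35 to 16.4). In capillary-type cells they were at 78.9 and 42.5 CPM and at 65.8 and 31.7 CPM. The capillary-type gaps went the same way and were smaller, and the difference in size was not tested.

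**Figure D4:**
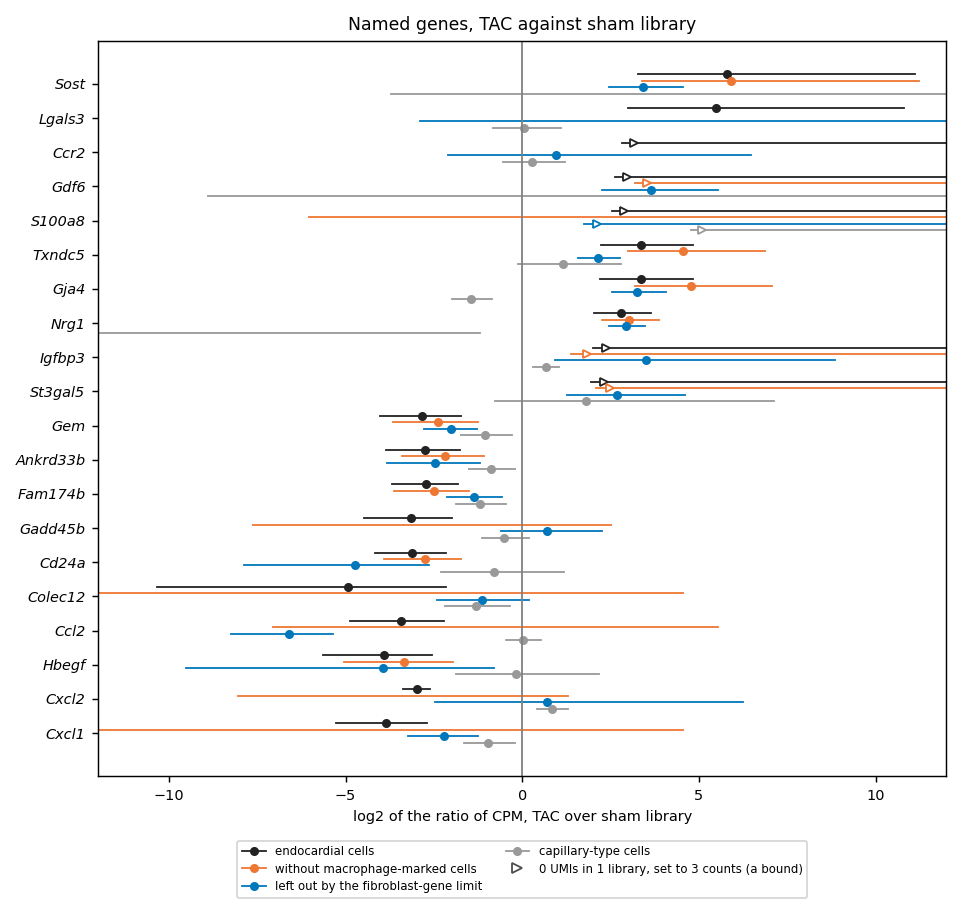
Log2 ratio of CPM, TAC over sham, for the 20 genes named by rule, in endocardial cells, in those without macrophage marks, in the cells left out by the fibroblast limit and in capillary-type cells (points, with exact 95% counting intervals, open triangles where 0 UMIs were read as 3, and a line alone where neither could be drawn). Nrg1, Sost and Gja4 lie above 0 in the first 3 of these, and Gja4 lies below 0 in capillary-type cells.

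Of the 20 genes the rule named, 8 rested on the macrophage-marked cells. Lgals3, Ccr2 and S100a8, genes of macrophages and neutrophils, were at 6.52 and 293, 0 and 175, and 0 and 144 CPM in all endocardial cells. In unmarked cells they had 0 UMIs, 0 UMIs and 1 UMI in TAC, and 1 cell carried 76.3%, 79.4% and 96.4% of their TAC UMIs. On the lower side, Cxcl2 (1655 and 208 CPM), Cxcl1 (261 and 18.0), Ccl2 (195 and 18.0), Colec12 (78.2 and 2.57) and Gadd45b (182 and 20.5) had at most 3 UMIs in the unmarked cells of either library. All 7 measured MHC class II genes were at least 2-fold higher in TAC, with Cd74, the invariant chain, at 827 and 2959 CPM. None of the 7 reached 50 CPM in unmarked cells, and in capillary-type cells 0 passed 2-fold.

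Lists of cell state differed in the same direction in capillary-type cells. Over all genes, 9.69% were higher and 10.8% lower in TAC endocardial cells, against 2.91% and 3.11% in capillary-type cells, so that a like count in the latter is farther from its background. Of 14 glycolysis and hypoxia genes 6 were higher and 0 lower, with a median of 0.68. Unmarked cells had 5 of 15 higher and 1 lower, and capillary-type cells 4 of 15 higher, at a median of 0.63. Gapdh was at 117 and 421 CPM and Aldoa at 287 and 593 CPM. Of 11 glucocorticoid response genes 5 were higher (median 0.76), against 4 of 11 in capillary-type cells (0.91). Ddit4, a stress-induced inhibitor of mTOR, was at 19.5 and 172 CPM. Of 14 heat shock genes 7 were lower and 0 higher (median -0.96), against 5 of 13 lower in capillary-type cells (-0.91). Hspb1 was at 1108 and 336 CPM, and Hspa1a, which has a near-identical copy and is uncertain, at 456 and 175 CPM. Of 16 immediate early genes 5 were lower (median -0.45), against 1 of 17 (-0.38). Jun was at 2560.4 and 986 CPM and Ier2 at 1068 and 393 CPM. These genes respond to tissue dissociation, and digestion cannot be told apart from the operation here.

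Of 14 basement membrane genes 4 were higher and 1 lower in TAC (median 0.44), against 4 of 16 higher in capillary-type cells (0.86), and 9 of the 14 passed 2-fold in neither direction. Sparc was at 293 and 1253 CPM, and Col4a2 at 26.1 and 139 CPM. The vascular receptor gene Nrp1 was at 358 and 1027 CPM. In unmarked cells the log2 ratios of Sparc, Col4a2 and Nrp1 were 2.16, 1.61 and 2.05. Edn1, the endothelin 1 gene, was at 39.1 and 249 CPM, whereas in capillary-type cells it was at 115 and 20.0 CPM. Of the Edn1 UMIs, 1 cell carried 66.7% in sham and 38.1% in TAC. Its receptor gene Ednrb was at 456 and 198 CPM. The BMP targets Id1 and Id3 were at 704 and 247 CPM and at 2163 and 812 CPM. Capillary lipid and retinol genes had 0 higher and 1 lower of 10 measured in endocardial cells, and 4 higher and 0 lower of 18 in capillary-type cells, a difference that was not tested. Of 22 oxidative phosphorylation genes and 12 flow-responsive genes 0 passed 2-fold in either direction.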

How the data were processed

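Single-cell libraries of 1 sham and 1 TAC group were used. The deposited values are whole-number UMI counts for each gene and barcode. Per the file headers, Cell Ranger 3.1.0 wrote them. The submitters' processing notes also name the mm10 build and Seurat, with no role given, and the gene annotation is not given in the sources used here. Barcodes with at least 500 genes, 1000 UMIs and at most 15% mitochondrial UMIs were kept, which left out 462 sham and 901 TAC barcodes of 8426 and 8901. Within each library, counts of a class were added up and scaled to CPM. Log2 ratios used CPM + 1, and genes under 50 CPM in both classes compared were not counted. The ratio and interval functions were tested on simulated data. A count of 0 was read as 3 UMIs in bounds. No tests were run, because each group is 1 library. Python 3.11.15, numpy 2.4.6, scipy 1.17.1, pandas 2.3.3, scanpy 1.11.5 and matplotlib 3.10.9 were used, and coordinates came from GENCODE vM21.

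Members and the 38 gene lists (529 genes, 1 not in the files) were chosen with earlier results of these data known. Genes were named by the interval bound nearest 1, 12 per direction against capillary-type cells and 10 per direction between libraries. Genes of the rule, mitochondrial, ribosomal, haemoglobin and sex-linked genes, unnamed models and genes at under 10% of the fibroblast or macrophage level were left out. Members of the lists were added. One gene named by this rule is not reported here. Doublets were not removed. Alternatives covered the cell filter, marker number, fibroblast limit, doublet removal, depth, weighting, scaling, pseudocount, low-value filter and comparison group. Leaving out macrophage-marked cells, dropping Dcn from the limit, leaving out cells with lymphatic UMIs and a 200 CPM filter were chosen after seeing the data.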

Additional observations from a re-analysis of the deposited data

How the results depend on the processing

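The share of kept cells (0.452% and 0.338%, sham then TAC) and of the gate (17.7% and 3.69%) followed the rule. With 3 of 4 markers they were 0.0879% and 0.0875%, and 3.45% and 0.958%. With a fibroblast limit of 0.1% they were 0.201% and 0.1375%, and 9.70% and 1.72%, and with 1% 0.779% and 0.8%, and 25.9% and 8.12%. With the collagens without Dcn they were 0.879% and 0.825%, and 27.1% and 8.34%. At equal depth (1500 UMIs) they were 0.258% and 0.114%, with a TAC gate share of 1.15%. Without macrophage-marked cells TAC was at 0.2125% and 2.33%, and the stricter cell filter gave a sham gate share of 26.3%. Genes at least 2-fold different from capillary-type cells (190 higher, 249 lower) were 388 lower with 3 of 4 markers, 418 and 436 at equal depth, 340 higher with a 20 CPM filter, 672 and 988 with no filter and 61 and 75 with a 200 CPM filter. Genes different between libraries (446 higher, 498 lower in TAC) were 1163 and 1317 with 3 of 4 markers, 746 and 883 with the 0.1% limit, 280 and 315 without Dcn, 2334 and 1717 at equal depth, 1104 and 927 with 20 CPM, 3327 and 2041 with no filter, and 83 and 73 with 200 CPM. Under the 0.1% limit Sost (-4.03), Nrg1 (-5.97), Colec11 (-2.62) and Ahsg (-0.65) changed sign on the log2(CPM + 1) scale, each with 0 UMIs in TAC endocardial cells. For Sost, Colec11 and Ahsg the other side was under the level of 3 UMIs, so the sign comes from the pseudocount, and for Nrg1 it was 4 UMIs. Other reversed log2 values were Cxcl2 7.22 and Ccl2 6.23 (equal depth), Ccl21a 2.91 (both capillary genes required) and 2.91 and 1.84 (no lymphatic UMIs), the cell cycle list -2.56 (3 of 4 markers) and the mesenchymal list -0.29 in sham (no filter). For Ccl21a with no lymphatic UMIs, the capillary-type level is 0 by the choice of cells, so the sign shows no direction. The cause of the other changes was not tested. Of 720 values of named genes against capillary-type cells 582 stayed within counting error, and of 260 between libraries 213, but at equal depth only 4 of 20 did, with 14 moved and 2 reversed. Median-of-ratios scaling moved the median log2 ratio of all genes between libraries from -0.119 to 0.0159. No paired analysis was possible because each group is 1 library and replicate numbers come from accession order. Depth limits what can be seen in sham: at 29 cells, 0 cells with a UMI allows a share of cells with a UMI of up to 10.3% (3 of 29).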

Other observations

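Genes linked to the change of endothelium into mesenchyme, a process of the developing valves, were measured for 5 of 19 list members. Of these, 3 were at least 2-fold higher and 1 lower in endocardial than in capillary-type cells of both libraries. Vim, vimentin, was at 7597 and 5869 CPM (sham, then TAC) against 2920 and 2610.5 CPM, and Zeb2, a repressor of epithelial genes, at 222 and 211 CPM against 72.3 and 72.6 CPM. Fn1, fibronectin, was at 228 and 1007 CPM against 82.2 and 71.2 CPM. Its log2 ratio between the libraries was 2.14 in all endocardial cells, 1.73 in those without macrophage marks and -0.20 in capillary-type cells. Macrophages held Zeb2 at 668 CPM in sham, and the part of their RNA in the endocardial level was not tested.

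Among leukocyte adhesion genes, 1 of 8 was higher and 2 were lower in both libraries. Vcam1, the ligand of the integrin VLA-4, was at 573 and 778 CPM against 158 and 121 CPM, while Icam1, the ligand of LFA-1, was at 149.8 and 100.2 CPM against 62.5 and 121 CPM, with no common direction. Of 8 scavenging and endocytosis genes 0 were higher and 2 lower in both.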
